A study of Homo sapiens with 27 samples.

Results

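Androgen-induced genes are a common readout of androgen signalling in prostate cancer cells, and 9 of them outside the kallikrein family were followed here across the knockdown of CPSF1, namely TMPRSS2, FKBP5, ELL2, ACSL3, PMEPA1, CAMKK2, ABCC4, SLC45A3 and STEAP4. They were chosen by name as known androgen-induced genes, with earlier results of these data known, from 20268 protein-coding gene symbols in the count table. All 9 were found in it, and 8 passed the filter on low counts in each cell line, with STEAP4 as the exception. CPSF1 is the largest subunit of the cleavage and polyadenylation specificity factor, which recognises the AATAAA hexamer near the 3′ end of a gene and directs cleavage of the transcript. Poly(A)-selected RNA was sequenced from 3 human prostate cancer lines, LNCaP, LNCaP95 and 22Rv1, after infection with lentivirus encoding a control hairpin (CTRL sh) or either of 2 hairpins against CPSF1 (CPSF1 sh1, CPSF1 sh2), giving 9 groups of 3 replicates (27 libraries). LNCaP cells depend on androgen, LNCaP95 is an LNCaP derivative adapted to growth without it, and 22Rv1 is a castration-resistant line derived from a xenograft. All cells were puromycin-selected, expanded populations harvested 72 h after seeding in medium with fetal bovine serum, and the labels name no added androgen or anti-androgen. LNCaP95 cells differed from the other lines in phenol red-free medium and a lower puromycin dose, so that line and culture conditions cannot be told apart. The labels do not say whether the replicates were separate cultures, and the p-values measure the spread between these libraries. In such bulk RNA, fewer expressing cells and less RNA per cell cannot be told apart.

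Androgens are steroid hormones that switch on genes in luminal prostate cells through androgen response elements, short DNA sequences that are often far from the genes they regulate. The genes they induce serve secretion, lipid synthesis and feedback on steroid signalling itself. Among the genes described here, FKBP5 is a co-chaperone of HSP90 that also acts on steroid receptors. PMEPA1 restrains transforming growth factor beta signalling, ELL2 is an elongation factor of RNA polymerase II, and ACSL3 activates long-chain fatty acids. CAMKK2 is a kinase upstream of AMPK. TMPRSS2 is a transmembrane serine protease, ABCC4 an exporter of cyclic nucleotides and prostaglandins, SLC45A3 a membrane transporter known as prostein, and STEAP4 a metalloreductase.

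In GRCh37 coordinates of the count table, the genes lie far apart on 9 chromosomes, with TMPRSS2 at chr21:42836478-42903043, FKBP5 at chr6:35541362-35696360, ELL2 at chr5:95220802-95297775, PMEPA1 at chr20:56223448-56286592 and CAMKK2 at chr12:121675497-121736111. The others are ABCC4 at chr13:95672083-95953687, SLC45A3 at chr1:205626979-205649587, STEAP4 at chr7:87905744-87936206 and ACSL3 at chr2:223725652-223809357, the last being the 1 gene on the plus strand. The sequences that bear on these genes are the androgen response element and the hexamer that CPSF recognises. The response element was searched as the half-site AGAACA followed, after a spacer of any 3 bases, by its reverse complement TGTTCT, which reads the same on both strands. Within 150000 bases on either side of the gene start, 1 of the 9 genes held a match, against 5.12% of 20242 genes, and a match within the gene itself was held by 1.24% of genes. No mismatch was allowed, so the lack of a match does not show that a gene lacks a response element. The match lies in an intron of FKBP5, 126494 bases from its start, at chr6:35569859-35569873 (GRCh37). It is printed on the minus strand, on which FKBP5 is transcribed, with the motif in capitals.

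FKBP5 intron: cacattcAGAACAGGGTGTTCTgtgctct

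The hexamer AATAAA occurs within the last 50 bases before the annotated end of 7 of the 9 genes, all but SLC45A3 and STEAP4. This share is to be read against 56.6% of all genes searched. Among the 10297 of these that were tested in all lines, which leaves out STEAP4, it was 60.9%. The ends are those of the count table. In GENCODE some ends differ, furthest for STEAP4, at chr7:87900207 in place of 87905744, and those ends were not searched. The windows of 4 genes are shown, ELL2 and FKBP5 for their rise in LNCaP and TMPRSS2 and ABCC4 for their fall in LNCaP95 (values below). They are printed on the transcribed strand, which is the minus strand for each, with the hexamer in capitals. The hexamers lie at chr21:42836503-42836508 for TMPRSS2, chr13:95672107-95672112 for ABCC4, chr6:35541383-35541388 for FKBP5 and chr5:95220818-95220823 for ELL2 (GRCh37).

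TMPRSS2 end: gaatatcatgcaAATAAAttatgcaatttt
ABCC4 end: aaattcaattgaAATAAAtgatagttttca
FKBP5 end: gtgtgttctttaAATAAAtccaaaaaaaat
ELL2 end: caatttcagttcAATAAAaatgttaacttt

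Libraries held 8515624 to 15904518 counts on genes (median 11058723). The knockdown was partial, with log2 fold changes of CPSF1 mRNA of -0.65 (LNCaP), -0.89 (LNCaP95) and -0.50 (22Rv1). The 4 luminal markers KRT8, KRT18, HOXB13 and FOLH1 were above 2 CPM (counts per 1000000 counts on genes) in every library. The 3 basal markers (KRT5, KRT14 and TP63) summed to at most 6.29 CPM, and the neuroendocrine markers (CHGA, SYP and INSM1) to at most 6.14 CPM in LNCaP and LNCaP95 but in 22Rv1 to 77.8 to 85.2 CPM in CTRL sh and 61.2 to 73.6 CPM in CPSF1 sh libraries, with SYP called lower (-0.29 ± 0.063). The 3 leukocyte markers (PTPRC, CD3E and CD68) summed to 3.01 to 3.63 CPM in CTRL sh and 10.0 to 18.0 CPM in CPSF1 sh libraries of LNCaP, with CD68 as the 1 marker that passed the filter. They summed to 6.42 to 9.44 and 16.2 to 34.6 CPM in the same groups of LNCaP95. The 4 fibroblast markers (COL1A1, COL1A2, DCN and LUM) summed to 22.1 to 26.4 CPM in CTRL sh and 13.5 to 16.8 CPM in CPSF1 sh libraries of LNCaP. The same sums were 55.7 to 72.5 and 42.5 to 58.5 CPM in LNCaP95 and 22.3 to 23.8 and 15.03 to 19.4 CPM in 22Rv1. COL1A1 fell in LNCaP (-0.71 ± 0.085, edgeR adjusted p = 5.3e-06) and LNCaP95 (-0.40 ± 0.11), and LUM fell in 22Rv1 (-1.08 ± 0.19, edgeR adjusted p = 9.1e-04). Their part in the results on the androgen-induced genes was not tested.

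Without knockdown, the 3 lines expressed these genes at widely different levels. FKBP5, ELL2 and PMEPA1 were lowest in LNCaP and highest in 22Rv1, ACSL3 was high in LNCaP95 alone, and TMPRSS2 and ABCC4 were far lower in 22Rv1. Levels of different genes are compared here as CPM per kb of exon (mean ± SD, n = 3 CTRL sh libraries), with library sizes scaled by the trimmed mean of M-values (TMM) over all 27 libraries. In LNCaP, TMPRSS2 led with 114 ± 2.57 CPM per kb, followed by SLC45A3 (63.2 ± 2.04), ABCC4 (58.6 ± 0.809), ACSL3 (40.0 ± 0.734) and CAMKK2 (31.7 ± 0.212). FKBP5 (12.4 ± 0.553) and PMEPA1 (12.3 ± 0.123) came next, with overlapping libraries, ahead of ELL2 (7.91 ± 0.157). In LNCaP95, TMPRSS2 reached 176 ± 6.53 and ACSL3 154 ± 5.41 CPM per kb. They were followed by ABCC4 (81.0 ± 1.65), then by SLC45A3 (54.4 ± 3.32) and PMEPA1 (51.1 ± 1.74), whose libraries overlapped, then FKBP5 (45.7 ± 1.30), ELL2 (27.6 ± 0.994) and CAMKK2 (19.1 ± 0.304). In 22Rv1, PMEPA1 led with 89.7 ± 0.0204 CPM per kb, ahead of ELL2 (76.2 ± 1.95), SLC45A3 (58.5 ± 0.499), FKBP5 (55.4 ± 1.29), ACSL3 (38.4 ± 1.44) and CAMKK2 (23.0 ± 0.663), while TMPRSS2 (8.71 ± 0.348) and ABCC4 (1.71 ± 0.187) stood at the bottom of the tested genes. STEAP4 was last in each line, with at most 0.311 ± 0.109 CPM per kb in 22Rv1.

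**Figure D1:**
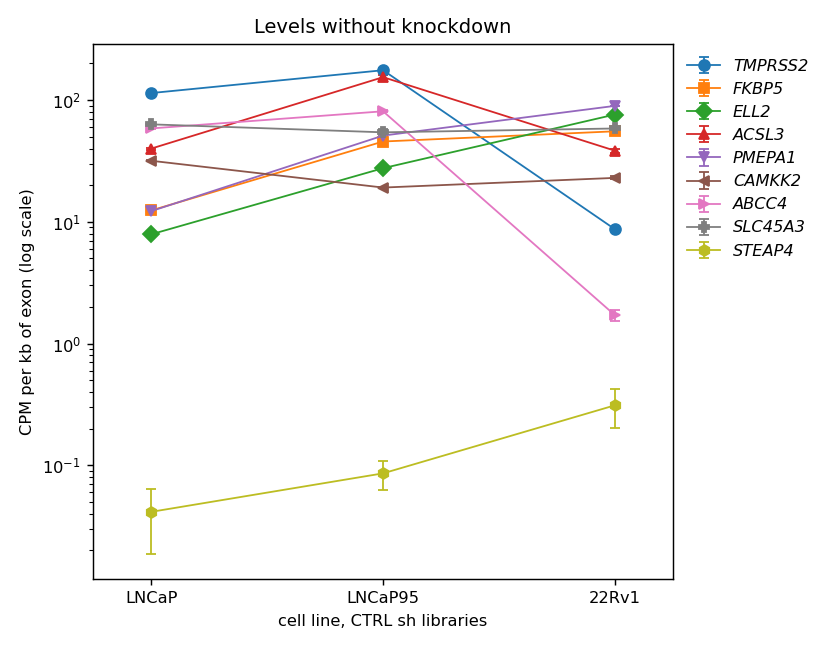
Mean level of each gene in the CTRL sh libraries of the 3 cell lines, in CPM per kb of exon on a log axis, with SD over 3 libraries; the lines only join the points of 1 gene. SLC45A3 stayed between 54.4 and 63.2 CPM per kb, while TMPRSS2 and ABCC4 dropped in 22Rv1.

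The differences between lines were tested in 1 edgeR fit of the 9 CTRL sh libraries with its quasi-likelihood F-test and Benjamini-Hochberg adjusted p below 0.05 as the threshold for a call. LNCaP95 differed from LNCaP in 8 of 8 tested genes, where 77.7% of all genes were called. In what follows, the value after ± is the SE of a log2 value unless SD is stated. The log2 differences were 2.05 ± 0.044 (SE, edgeR adjusted p = 3.0e-24) for PMEPA1, 1.94 ± 0.040 for ACSL3, 1.87 ± 0.043 for FKBP5 and 1.79 ± 0.048 for ELL2, against 0.62 for TMPRSS2 and 0.46 for ABCC4. CAMKK2 (-0.74 ± 0.040) and SLC45A3 (-0.23 ± 0.044) were lower in LNCaP95. In 22Rv1 against LNCaP, 7 of 8 genes were called, where 84.3% of all genes were, and ACSL3 was the exception (-0.074 ± 0.042, edgeR adjusted p = 0.10). ABCC4 (-5.10 ± 0.058) and TMPRSS2 (-3.73 ± 0.048) were far lower, whereas ELL2 (3.25 ± 0.046), PMEPA1 (2.86 ± 0.043) and FKBP5 (2.14 ± 0.043) were higher. In 22Rv1 against LNCaP95 all 8 were called, where 86.3% of all genes were. The call of SLC45A3 there (0.10 ± 0.045, edgeR adjusted p = 0.045) was lost without replicate 1 or 2 of LNCaP CTRL sh, replicate 2 of LNCaP95 CTRL sh or any 1 of the 3 CTRL sh libraries of 22Rv1, with edgeR adjusted p from 0.052 to 0.12, and with no filter on low counts (edgeR adjusted p = 0.050). Its call in 22Rv1 against LNCaP was lost without replicate 2 of LNCaP CTRL sh (edgeR adjusted p = 0.053). With so many genes differing between the lines, these counts are near the background.

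In LNCaP cells, CPSF1 knockdown moved these genes in opposite directions. Comparing the 6 CPSF1 sh with the 3 CTRL sh libraries, 7 of the 8 tested genes passed the threshold, where 62.1% of 11096 genes did. FKBP5, ELL2, ACSL3 and PMEPA1 rose, 4 of 8 where 31.1% of all genes rose, and TMPRSS2, CAMKK2 and SLC45A3 fell, 3 of 8 where 31.0% fell. The median change of the 8 genes was 0.43 on the log2 scale, against -0.00036 for all genes. It falls between PMEPA1 (0.86) and ABCC4 (0.0099), and no gene lay near it. Since the genes were chosen with earlier results of these data known, it is no test of a shared rise.

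ELL2 rose most. Its level was 47.9, 49.8 and 49.4 CPM in the CTRL sh libraries, 134, 141 and 162 CPM with CPSF1 sh1 and 134, 130.5 and 138 CPM with CPSF1 sh2. Every hairpin library was above every control, and the log2 fold change was 1.52 ± 0.067 (SE, edgeR adjusted p = 2.2e-10), a 2.87-fold rise. FKBP5 stood at 127, 131 and 138 CPM in CTRL sh, 266, 271 and 304 CPM in CPSF1 sh1 and 246, 265 and 276 CPM in CPSF1 sh2 libraries. The groups did not overlap, and the log2 fold change was 1.05 ± 0.057 (SE, edgeR adjusted p = 1.5e-09), a 2.07-fold rise. ACSL3 went from 249, 244 and 239.6 CPM to 467, 479 and 483 CPM with CPSF1 sh1 and 490.1, 496 and 514 CPM with CPSF1 sh2, again without overlap, with a log2 fold change of 1.01 ± 0.036 (SE, edgeR adjusted p = 3.1e-11). PMEPA1 measured 69.5, 68.2 and 69.0 CPM in CTRL sh libraries, 128, 137 and 156 CPM in CPSF1 sh1 and 105, 111 and 108 CPM in CPSF1 sh2 libraries. Its log2 fold change was 0.86 ± 0.11 (SE, edgeR adjusted p = 7.4e-06), and CPSF1 sh1 gave the larger rise.

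TMPRSS2, the protease gene and the highest of these genes in LNCaP, fell from 607, 634 and 618 CPM in CTRL sh to 430.2, 429 and 413 CPM in CPSF1 sh1 and 408, 428 and 427 CPM in CPSF1 sh2 libraries. The libraries of the 2 hairpins overlapped each other and lay below every control, with a log2 fold change of -0.54 ± 0.031 (SE, edgeR adjusted p = 2.8e-09). CAMKK2 fell from 218, 220.2 and 218 CPM to 156, 157 and 149 CPM and 157, 165 and 162 CPM, with a log2 fold change of -0.46 ± 0.035 (SE, edgeR adjusted p = 4.9e-08). The fall of SLC45A3 was small, from 237, 240.2 and 226 CPM to between 210.2 and 217 CPM, and still left the groups apart (-0.12 ± 0.032, edgeR adjusted p = 0.0037). ABCC4 did not pass the threshold, at 467 to 480.1 CPM in CTRL sh and 438 to 507 CPM in CPSF1 sh libraries (median 466), and the 95% interval of its log2 fold change was -0.086 to 0.11.

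**Figure D2:**
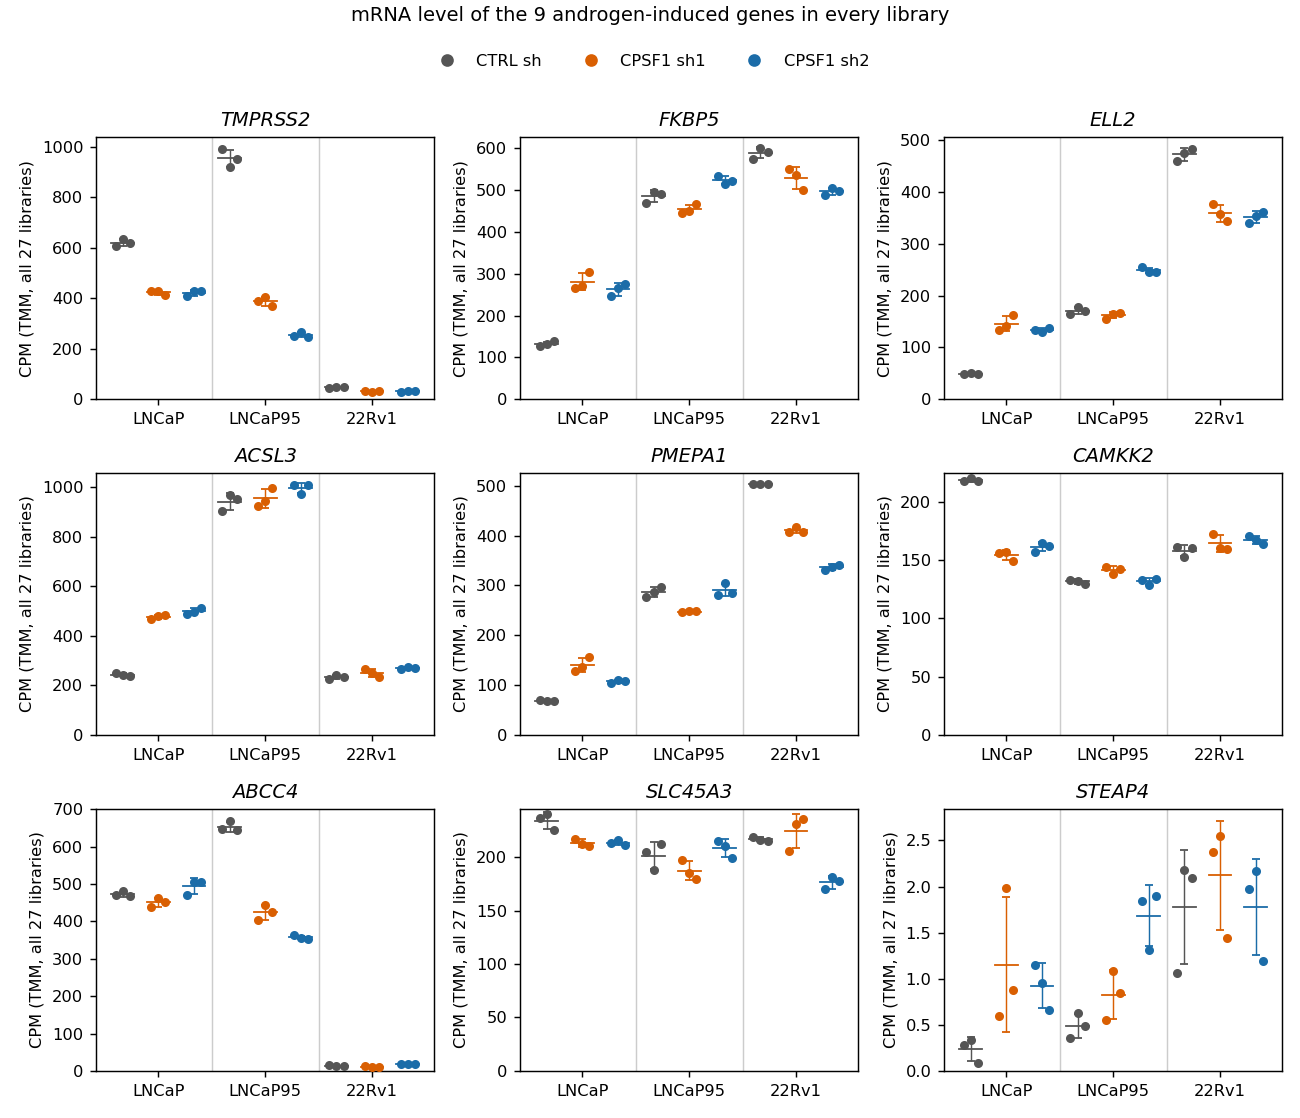
Level of each of the 9 genes in every library, in CPM on linear axes that start at 0; points are libraries, in the order of their replicate number, horizontal bars the mean and error bars the SD of 3 libraries. In LNCaP the hairpin libraries of ELL2, FKBP5, ACSL3 and PMEPA1 lie above the controls and those of TMPRSS2 and CAMKK2 below; in LNCaP95 TMPRSS2 and ABCC4 lie below.

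The 4 genes that rose in LNCaP are those that stood highest in LNCaP95 relative to LNCaP without knockdown. Both comparisons share the LNCaP CTRL sh libraries, so the values are given side by side without a test. With knockdown in LNCaP and in LNCaP95 CTRL sh cells respectively, FKBP5 changed by 1.05 and 1.87, ELL2 by 1.52 and 1.79, ACSL3 by 1.01 and 1.94, and PMEPA1 by 0.86 and 2.05 on the log2 scale. CAMKK2 had -0.46 and -0.74. TMPRSS2 differed in sign, with -0.54 against 0.62. Of the 4 genes that rose, ELL2 in LNCaP with CPSF1 sh1 (146 ± 14.9 CPM, SD, n = 3) came nearest to its LNCaP95 control level (171 ± 6.16 CPM).

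In LNCaP95 cells the picture was different. The genes that rose in LNCaP did not pass the threshold, and the 2 called genes were TMPRSS2 and ABCC4, both lower. These are 2 of 8, where 66.9% of 11143 genes were called and 33.7% were called lower. TMPRSS2 fell from 991, 921 and 950.3 CPM in CTRL sh to 389, 404 and 370.2 CPM with CPSF1 sh1 and 252, 267 and 248 CPM with CPSF1 sh2. The 3 groups did not overlap, and the log2 fold change of -1.57 ± 0.14 (SE, edgeR adjusted p = 1.8e-06), a 2.97-fold fall, was the largest decrease of any of these genes in any line. ABCC4, the exporter, fell from 648, 669 and 644 CPM to 404, 444 and 425 CPM and 363, 355 and 354 CPM, with a log2 fold change of -0.75 ± 0.070 (SE, edgeR adjusted p = 2.1e-06).

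The other 6 genes had log2 fold changes of 0.26 ± 0.16 for ELL2, -0.10 ± 0.070 for PMEPA1, 0.050 ± 0.045 for ACSL3, 0.050 ± 0.045 for CAMKK2, -0.030 ± 0.063 for SLC45A3 and 0.0054 ± 0.064 for FKBP5 (SE). Their edgeR adjusted p-values ran from 0.17 to 0.95. For ELL2 the pooled value hides a difference between hairpins. The CTRL sh libraries had 165, 177 and 171 CPM, those with CPSF1 sh1 had 156, 164 and 167 CPM and those with CPSF1 sh2 had 255, 245 and 246 CPM, so that the libraries of 1 hairpin overlapped the controls and those of the other lay above them. When each hairpin had its own term and both effects were averaged, 4 of the 8 genes were called in place of 2, ELL2 (0.23) and PMEPA1 (-0.10) being added. With library size alone, without a composition factor, 4 were called as well, with ACSL3 and CAMKK2 added, and the share of all called genes that were higher went from 49.6% to 62.2%.

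In 22Rv1 cells, ELL2, PMEPA1 and FKBP5, which rose in LNCaP, fell with knockdown, and TMPRSS2 fell again. Of the 8 tested genes 5 were called, where 26.9% of 11728 genes were, with 4 lower (14.3% of all genes) and ACSL3 higher (12.7%). ELL2 went from 459, 476 and 482 CPM in CTRL sh to 376, 357 and 344 CPM with CPSF1 sh1 and 339, 353 and 362 CPM with CPSF1 sh2, without overlap, with a log2 fold change of -0.41 ± 0.040 (SE, edgeR adjusted p = 1.7e-05). PMEPA1 went from 504, 504 and 504 CPM to 408, 417 and 408 CPM and 330.3, 337 and 342 CPM, with a log2 fold change of -0.43 ± 0.072 (SE, edgeR adjusted p = 6.7e-04). FKBP5 had 574, 602 and 592 CPM in CTRL sh, 551, 536 and 501 CPM in CPSF1 sh1 and 488, 504 and 498 CPM in CPSF1 sh2 libraries, a small fall with a log2 fold change of -0.20 ± 0.043 (SE, edgeR adjusted p = 0.0032).

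TMPRSS2 was low in 22Rv1 from the start and fell from 45.2, 48.9 and 47.4 CPM to 32.4, 30.4 and 33.8 CPM with CPSF1 sh1 and 29.3, 30.7 and 33.2 CPM with CPSF1 sh2. The log2 fold change of -0.58 ± 0.061 (SE, edgeR adjusted p = 2.8e-05) was of the size seen in LNCaP. TMPRSS2 was thereby the 1 gene of the 8 called in the same direction in all 3 lines. The share of all genes called in this way was not computed. The rise of ACSL3 (0.15 ± 0.052, edgeR adjusted p = 0.043) rested on overlapping groups, at 226 to 244 CPM in CTRL sh and 235 to 276 CPM in CPSF1 sh libraries (median 266). It lost the call when any 1 of 7 of the 9 libraries was left out, with edgeR adjusted p from 0.061 to 0.19. CAMKK2 (0.065 ± 0.043), ABCC4 (0.11 ± 0.18) and SLC45A3 (-0.12 ± 0.091) did not pass the threshold.

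STEAP4, the metalloreductase, lay below the filter in every line and enters none of the counts above. LNCaP CTRL sh libraries held 1 to 4 STEAP4 counts each and hairpin libraries 5 to 22, at 8 counts over 3 libraries against 70 over 6. Scaled for library size this is a ratio of 4.43 (95% exact interval 2.13 to 10.7), where the interval covers counting error only. In LNCaP95 the sums were 17 and 93 counts and the ratio 2.47 (interval 1.47 to 4.43). In 22Rv1 they were 57 and 124 counts and the ratio 1.12, with an interval of 0.814 to 1.56 that includes no change. Fitted with the filter of edgeR's filterByExpr in place of the 2 CPM filter, STEAP4 had a log2 fold change of 2.09 ± 0.52 (SE, edgeR adjusted p = 0.0028) in LNCaP and 1.27 ± 0.45 (edgeR adjusted p = 0.025) in LNCaP95 cells. The hairpins differed in LNCaP95, by 1.02 ± 0.30 for CPSF1 sh2 minus CPSF1 sh1 (edgeR adjusted p = 0.013). With CPSF1 sh2 the log2 fold change there was 1.73 ± 0.36 (edgeR adjusted p = 1.9e-04), and with CPSF1 sh1 it was 0.71 ± 0.40 and not called (edgeR adjusted p = 0.13). Even with knockdown the highest LNCaP library reached 1.98 CPM.

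The 2 hairpins against CPSF1 were also compared with the controls one at a time. In LNCaP each called 7 of 8 genes, where 62.6% of all genes were called with CPSF1 sh1 and 64.6% with CPSF1 sh2, in the directions of the pooled comparison. In LNCaP95, CPSF1 sh1 called 5 genes (66.4% of all genes) and CPSF1 sh2 called 4 (73.4%). TMPRSS2 changed by -1.30 ± 0.043 (SE, edgeR adjusted p = 2.2e-15) with CPSF1 sh1 and -1.90 ± 0.045 (SE, edgeR adjusted p = 2.5e-18) with CPSF1 sh2. ELL2 had -0.083 ± 0.043 (SE, edgeR adjusted p = 0.096) with CPSF1 sh1 and 0.54 ± 0.043 (SE, edgeR adjusted p = 4.0e-10) with CPSF1 sh2. FKBP5 was called in opposite directions, with -0.10 ± 0.038 (SE, edgeR adjusted p = 0.024) and 0.11 ± 0.038 (SE, edgeR adjusted p = 0.017) respectively. The first call was lost without replicate 2 or 3 of CTRL sh or replicate 1 or 2 of CPSF1 sh1, and the second without replicate 1 of CTRL sh or replicate 1 of CPSF1 sh2. The first was also lost with library size alone (-0.0053) and the second with filterByExpr (0.062). Without replicate 3 of CTRL sh, CPSF1 sh1 called 3 genes. The call of CAMKK2 with CPSF1 sh1 (0.10 ± 0.041, edgeR adjusted p = 0.042) was lost without any 1 of 7 of the 9 libraries, with edgeR adjusted p from 0.051 to 0.14. In 22Rv1, CPSF1 sh1 called 4 genes (19.9% of all genes) and CPSF1 sh2 called 7 (40.0%). TMPRSS2, ELL2, PMEPA1 and FKBP5 were lower with either hairpin, and FKBP5 lost its call with CPSF1 sh1 without replicate 2 of CTRL sh (edgeR adjusted p = 0.069).

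The difference between the hairpins was itself tested. In LNCaP it was called for 2 of 8 genes, where 14.8% of all genes were, with PMEPA1 lower (-0.38 ± 0.053, edgeR adjusted p = 6.8e-05) and ABCC4 higher (0.13 ± 0.035, edgeR adjusted p = 0.016) with CPSF1 sh2. Without replicate 2 or 3 of CPSF1 sh2 the count was 1 gene. The call of ABCC4 was lost without replicate 1 of CPSF1 sh1, or without replicate 2 or 3 of CPSF1 sh2. In LNCaP95 it was called for 6 of 8, where 34.1% of all genes were, led by ELL2 (0.62 ± 0.043, edgeR adjusted p = 2.4e-09) and TMPRSS2 (-0.60 ± 0.045, edgeR adjusted p = 5.7e-09) and followed by ABCC4 (-0.24), PMEPA1 (0.23), FKBP5 (0.21) and SLC45A3 (0.16). The call of SLC45A3 was lost without replicate 3 of CPSF1 sh1 or replicate 1 of CPSF1 sh2. In 22Rv1 it was called for 3 of 8 (11.3% of all genes). ABCC4 was higher with CPSF1 sh2 than with CPSF1 sh1 (0.65 ± 0.11, edgeR adjusted p = 0.0017), at 17.6, 17.4 and 19.8 CPM against 13.0, 11.5 and 10.5 CPM and 15.6, 13.0 and 13.0 CPM in the controls, while SLC45A3 (-0.35 ± 0.051) and PMEPA1 (-0.29 ± 0.035) were lower. ACSL3 and CAMKK2 were not called between the hairpins in any line, with 95% intervals within -0.18 to 0.22 on the log2 scale. CPSF1 mRNA was not called between the hairpins in any line, with log2 differences of -0.14, 0.00041 and 0.067 in LNCaP, LNCaP95 and 22Rv1.

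**Figure D3:**
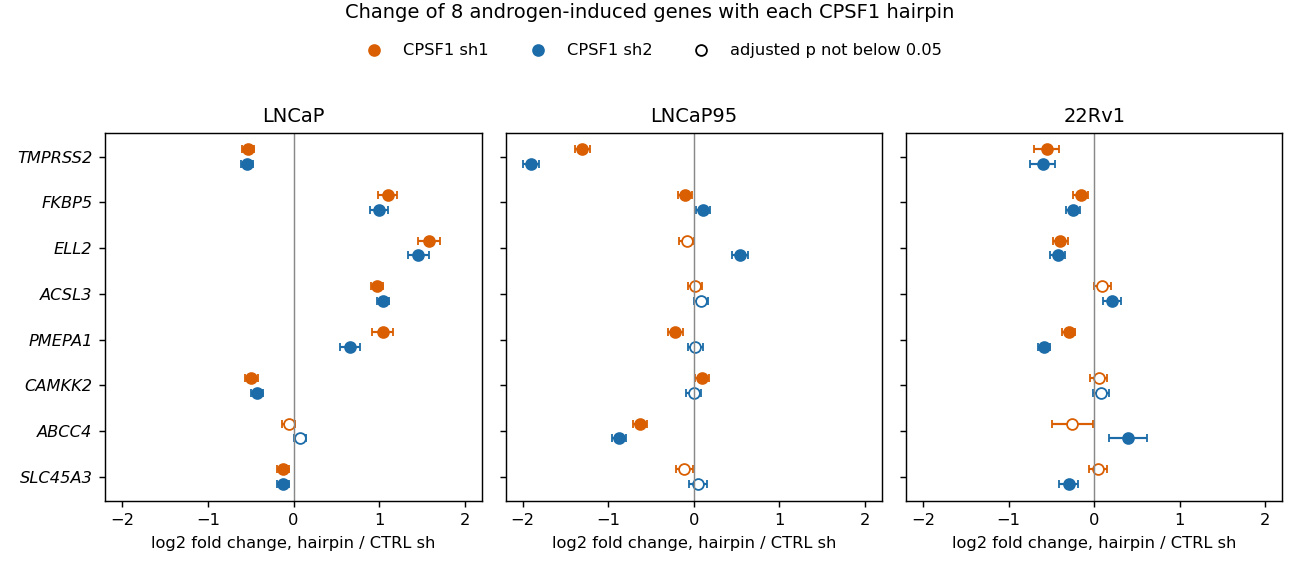
Log2 fold change of the 8 tested genes for each hairpin against CTRL sh, 3 against 3 libraries, with 95% intervals; filled points have an edgeR adjusted p below 0.05. ELL2 stands at 1.58 and 1.46 in LNCaP and at -0.40 and -0.43 in 22Rv1, and TMPRSS2 lies left of 0 in each panel.

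Whether the knockdown effect differed between lines was tested as an interaction in 1 edgeR fit of all 27 libraries, with both hairpins pooled in each line. Between LNCaP95 and LNCaP the effect differed for 7 of 8 genes (50.9% of all genes), with SLC45A3 as the exception. Between 22Rv1 and LNCaP it differed for 5 of 8 (40.4%), and between 22Rv1 and LNCaP95 for 5 of 8 (53.7%). ELL2 showed the largest difference, with -1.92 ± 0.16 (SE, edgeR adjusted p = 3.5e-10) for 22Rv1 minus LNCaP on the log2 scale. The effect on TMPRSS2 was stronger in LNCaP95 than in LNCaP (-1.01 ± 0.14, edgeR adjusted p = 1.2e-06), while its 22Rv1 and LNCaP effects were not told apart (-0.024 ± 0.17, 95% interval -0.36 to 0.31). The effect on ABCC4 separated LNCaP95 from both other lines, and that on CAMKK2 separated LNCaP from both. For SLC45A3, prostein, no difference was called, and the 95% intervals of its 3 differences lay within -0.30 to 0.33. The calls of FKBP5 and PMEPA1 between 22Rv1 and LNCaP95 were lost without replicate 1 of the LNCaP95 CTRL sh group, which left 3 of 8, and that of FKBP5 also without replicate 2 of the 22Rv1 CTRL sh group.

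A list of 48 other androgen-induced genes, which includes the kallikreins KLK2, KLK3 and KLK4, was set beside the 8. In LNCaP 23 rose and 15 fell of 48 tested, with a median log2 fold change of 0.14, where 31.1% of all genes rose and 31.0% fell. The share that fell was thus that of all genes. The largest rises were those of the transcription factor MAF (2.60 ± 0.082), the phosphatase PTPN21 (1.89 ± 0.12) and the kinase SGK1 (1.39 ± 0.16), and the largest falls those of KLK3, which encodes prostate-specific antigen (-1.62 ± 0.059), SEC24D (-0.48 ± 0.076), a coat protein of vesicles leaving the endoplasmic reticulum, and ABHD2 (-0.45 ± 0.043). In LNCaP95 8 rose and 27 fell of 48, with a median of -0.19, where 33.2% of all genes rose and 33.7% fell. PTPN21 (1.38 ± 0.28), GUCY1A3 (0.89 ± 0.19) and MAF (0.61 ± 0.18) rose most, and NDRG1 (-1.69 ± 0.21), HERC3 (-1.34 ± 0.079) and ZBTB10 (-1.02 ± 0.068) fell most. In 22Rv1 6 rose and 13 fell of 45 tested, with a median of -0.065, where 12.7% of all genes rose and 14.3% fell. MAF (0.93 ± 0.13), PTPN21 (0.63 ± 0.093) and ZMIZ1, a transcriptional co-activator (0.57 ± 0.063), rose most, and KLK4 (-0.44 ± 0.085), IQGAP2 (-0.42 ± 0.11) and ZBTB10 (-0.40 ± 0.055) fell most. KLK2, KLK3 and KLK4 are similar in sequence, and reads could be split between them.

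Of 6 genes known to be repressed by androgen, 4 were tested in LNCaP and 2 fell (31.0% of all genes), UGT2B17 (-2.32 ± 0.14) and UGT2B15 (-1.98 ± 0.092), which encode closely similar enzymes that glucuronidate androgens and whose reads could be split between them. None of 3 tested was called in LNCaP95, where UGT2B17 had -0.20 ± 0.086 (edgeR adjusted p = 0.059) and UGT2B15 0.040 ± 0.063 (edgeR adjusted p = 0.60). In 22Rv1 1 of 4 was called, NOV, which rose (0.56 ± 0.18, edgeR adjusted p = 0.035).

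Of a list of 18 genes, the glucocorticoid receptor gene with cofactors and chaperones of steroid receptors, 9 rose and 5 fell of 17 tested in LNCaP, where 31.1% of all genes rose and 31.0% fell, so that the share that fell was near that of all genes. Those that fell most there were the pioneer factor FOXA1 (-0.48 ± 0.035), the zinc finger factor GATA2 (-0.34 ± 0.052) and the homeobox factor HOXB13 (-0.29 ± 0.032), and those that rose most were the immunophilin FKBP4 (0.31 ± 0.037), the co-activator CREBBP (0.28 ± 0.053) and the chaperone HSP90AA1 (0.28 ± 0.037). In LNCaP95 7 rose and 7 fell of 18 (33.2% and 33.7% of all genes), led by HSPA8 (0.76 ± 0.095) and the co-activators NCOA2 (0.75 ± 0.068) and NCOA1 (0.58 ± 0.050) on 1 side and by the glucocorticoid receptor gene NR3C1 (-0.65 ± 0.097) and the corepressor NCOR1 (-0.62 ± 0.063) on the other. In 22Rv1 4 rose and 1 fell of 18 (12.7% and 14.3% of all genes), with GATA2 higher (0.35 ± 0.074) and NCOR1 lower (-0.29 ± 0.070). NR3C1, whose product binds elements much like the androgen response element and can induce FKBP5, had 0.483 CPM in CTRL sh libraries of LNCaP, 16.3 CPM in LNCaP95 and 24.4 CPM in 22Rv1. The part of NR3C1 in the levels of FKBP5 was not tested.

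Over the 27 libraries, each level was expressed relative to the CTRL sh mean of its line, and the genes most like each member were sought among 10317 genes tested in all lines. These correlations describe how levels moved together and carry no test, since all genes share the libraries. FKBP5 and ELL2 were among each other's 3 closest genes (Pearson r = 0.977), and FKBP5 was also among those of PMEPA1 (r = 0.959). FKBP5 and CAMKK2 had r = -0.977. In the pooled comparisons LNCaP was the 1 line where both were called, FKBP5 higher (1.05) and CAMKK2 lower (-0.46). CAMKK2 was not called in LNCaP95 (0.050) or 22Rv1 (0.065). The genes closest to TMPRSS2 were ARFGAP3 (r = 0.985), COPB1 and MPLKIP, and those closest to ABCC4 were COPB2 (r = 0.945), NUPL1 and RMND5A, where ARFGAP3, COPB1 and COPB2 act on or in the COPI vesicle coat. The genes closest to ACSL3 were GPC6, SGK223 and HSPB8 (r from 0.977 to 0.984), and those closest to CAMKK2 were CELSR2, SORL1 and PLCB4 (r from 0.969 to 0.970). SLC45A3 had no gene as close, BCL7C leading with r = 0.758.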

How the data were processed

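The authors aligned paired-end reads of poly(A)-selected, stranded libraries to GRCh37 (HISAT2 2.1.0) and assigned fragments to exons using featureCounts of Subread, version 2.0.3 in the submitters' processing notes. The deposited table holds raw counts for 20268 protein-coding gene symbols, without normalization, in 27 libraries of 8515624 to 15904518 counts. No column belonged to another series.

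Each line was fitted in R 4.3.3 with edgeR 4.0.16, following the study's methods. Genes above 2 CPM in all 9 libraries were kept, scaled by TMM and compared with the legacy quasi-likelihood F-test between 6 CPSF1 sh and 3 CTRL sh libraries. P-values were adjusted over all tested genes after Benjamini and Hochberg, and 0.05 was the threshold. Hairpins were compared in 3-group fits, line differences of the effect as interactions over 27 libraries with genes above 2 CPM in each, and CTRL sh levels in a fit of 9 libraries with genes above 2 CPM in all 3 CTRL sh libraries of a line. The standard error is the log2 fold change divided by the square root of F. Printed CPM use TMM factors over 27 libraries and are not adjusted for gene length unless given per kb of exon. The likeness measure added 0.5 CPM before the log2. Biological coefficients of variation were 4.95% (LNCaP), 7.09% (LNCaP95) and 6.08% (22Rv1) in the pooled fits, where differences between hairpins add to the spread. In the 3-group fits they were 3.25%, 3.87% and 4.55%. No replicate libraries agreed within sampling noise (chi-square per degree of freedom 1.39 or more). The fits were tested on simulated data, where the share of false calls lay above 0.05 in some comparisons.

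The members and lists were chosen with earlier results of these data known. Named genes are the members and CPSF1, the 3 largest called rises and falls per list and line, the 3 genes most like each member, and same-strand neighbours, and a few listed genes are not reported here. Alternatives were other size factors, filters, hairpin groupings, DESeq2 1.42.0, the current edgeR quasi-likelihood method, a replicate block and leaving out each library. Sequences were read from GRCh37, with gene positions from the deposited table.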

Additional observations from a re-analysis of the deposited data

Results flagged for a closer look

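The knockdown effect differed between cell lines, by the interaction test in edgeR with adjusted p below 0.05, for 7 of the 8 tested genes. The share of all genes called in any of the comparisons between lines was not computed. Taken singly, 50.9% of 10317 genes were called in LNCaP95 minus LNCaP, 40.4% in 22Rv1 minus LNCaP and 53.7% in 22Rv1 minus LNCaP95. The 17 differences called for the 7 genes are listed here as differences of log2 fold changes. In LNCaP95 minus LNCaP they were -1.25 for ELL2, -1.03 for FKBP5, -1.01 for TMPRSS2, -0.94 for ACSL3, -0.94 for PMEPA1, -0.74 for ABCC4 and 0.53 for CAMKK2. In 22Rv1 minus LNCaP they were -1.92 for ELL2, -1.28 for PMEPA1, -1.24 for FKBP5, -0.85 for ACSL3 and 0.54 for CAMKK2. In 22Rv1 minus LNCaP95 they were 0.99 for TMPRSS2, 0.84 for ABCC4, -0.67 for ELL2, -0.34 for PMEPA1 and -0.21 for FKBP5. These tests pooled both hairpins. With CPSF1 sh1, the log2 fold changes in 22Rv1 and LNCaP95 were -0.16 and -0.10 for FKBP5 and -0.30 and -0.22 for PMEPA1. With CPSF1 sh2 they were -0.25 and 0.11 for FKBP5 and -0.59 and 0.016 for PMEPA1. The 95% intervals of both lines overlapped with CPSF1 sh1 for FKBP5 and PMEPA1, but with neither hairpin for TMPRSS2, ABCC4 and ELL2. CPSF1 mRNA fell further in LNCaP95 than in 22Rv1 (log2 difference of 22Rv1 minus LNCaP95 0.39 ± 0.10, edgeR adjusted p = 0.0025), and its part in the differences between these lines was not tested.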

How the results depend on the processing

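Over the settings tried, 1062 values kept their side of the threshold, 16 lost a call, 26 gained one and 0 changed sign with a call in either fit. With single libraries left out the numbers were 1682, 36, 10 and 0. A change of sign without a call in either fit was counted as kept. Counts of called genes that moved by over 1.5 times were, in LNCaP95, 4 in place of 2 for the pooled knockdown with library size alone, with the hairpins as separate groups or with CPSF1 sh2 alone, and 7 in place of 4 for CPSF1 sh2 with library size alone. For the effect in 22Rv1 minus LNCaP95 the count was 3 in place of 5 with filterByExpr or no filter. For the other counts of called genes the settings stayed within 1.5 times, except for a replicate block in LNCaP, described below. Leaving out 1 library gave 1 to 2 genes for CPSF1 sh2 minus sh1 in LNCaP, 3 to 5 for CPSF1 sh1 in LNCaP95 and 3 to 5 for the effect in 22Rv1 minus LNCaP95. Correlations of same-numbered replicates ran from -0.27 to 0.32, and in no line were all above 0.1, so the numbers were not taken as pairs. In LNCaP those of replicates 1 and 3 were all positive (0.024 to 0.28 and 0.067 to 0.21) and those of replicate 2 were -0.064 to 0.016. Of 9 libraries each, 6, 3 and 3 of LNCaP, LNCaP95 and 22Rv1 correlated best with their own number, a hint of shared variation in LNCaP. A replicate block gave 4 genes in place of 2 for CPSF1 sh2 minus sh1 in LNCaP, adding FKBP5 (-0.10) and ELL2 (-0.12), with 2164 in place of 1639 calls over all genes. It lost ACSL3 in 22Rv1 (edgeR adjusted p = 0.069) and PMEPA1 in 22Rv1 minus LNCaP95 (edgeR adjusted p = 0.051), and lost no other call. Over all genes, 22Rv1 gave 3160 calls with both hairpins, 1853 when only CPSF1 sh1 and 6050 when only CPSF1 sh2 was used, and DESeq2 gave 1061 against 1639 for CPSF1 sh2 minus sh1 in LNCaP. Library size alone moved the median of all genes by at most 0.10, and split the calls into 4861 higher and 2643 lower for CPSF1 sh1 in LNCaP95, 3568 and 1850 for LNCaP95 minus LNCaP, and 2122 and 3550 for 22Rv1 minus LNCaP95. Causes were not tested. Depth limits STEAP4, at 1 to 27 counts per library.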

Other observations

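Relatives and partners of the 9 genes, a list of 27, were also measured. In LNCaP 5 rose and 7 fell of 19 tested, where 31.1% of all genes rose and 31.0% fell. In LNCaP95 6 rose and 10 fell of 20 (33.2% and 33.7% of all genes), and in 22Rv1 3 fell of 23 and none rose (14.3% and 12.7%). Apart from the falls in LNCaP95 and the lack of rises in 22Rv1, these shares lie near those of all genes. STEAP2, a family member of STEAP4 and the better expressed of the pair in LNCaP, fell in LNCaP (-0.57 ± 0.066, edgeR adjusted p = 3.2e-06) and LNCaP95 (-0.48 ± 0.080), while STEAP3 rose in LNCaP95 (1.50 ± 0.077, edgeR adjusted p = 2.5e-08). ACSL1, which activates fatty acids as ACSL3 does, fell in LNCaP (-0.53 ± 0.043, edgeR adjusted p = 9.7e-08) where ACSL3 rose, and fell in LNCaP95 (-0.98 ± 0.087). PRKAA1, a catalytic subunit of AMPK downstream of CAMKK2, fell in all 3 lines, with log2 fold changes of -0.37 ± 0.044, -0.50 ± 0.071 and -0.20 ± 0.061 in LNCaP, LNCaP95 and 22Rv1. AFF4, the scaffold of the super elongation complex that holds ELL2, fell in LNCaP95 (-0.48 ± 0.042, edgeR adjusted p = 1.4e-06), which is outside the naming rule and was chosen after its values were seen.

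None of the 9 genes overlaps another protein-coding gene of the count table on its strand, and non-coding genes were not searched. The closest is ANAPC5, which ends 10048 bases upstream of CAMKK2 and had log2 fold changes of 0.024 in LNCaP, 0.33 in LNCaP95 and 0.019 in 22Rv1. ELK4 starts 25888 bases downstream of SLC45A3, with which it is known to form a read-through transcript in prostate cells. ELK4 fell in LNCaP (-0.30 ± 0.061, edgeR adjusted p = 5.3e-04) and LNCaP95 (-0.48 ± 0.070, edgeR adjusted p = 7.2e-05), and had -0.065 ± 0.060 in 22Rv1 (edgeR adjusted p = 0.45).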
